A study of Rattus norvegicus with 30 samples.

Results

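Repaired plantaris tendons from rats treated with 2 mg/kg of GSK2894631A, an orally given inhibitor of hematopoietic prostaglandin D synthase (HPGDS), were compared to repaired tendons from vehicle-treated rats 7 days after surgery. The labels place 4 tendons in the 7D 2 mg/kg group (replicates 2 to 5) and 5 tendons in the 7D 0 mg/kg group (replicates 1 to 5), so 9 of the 30 tendons in the series make up this comparison. All were male Sprague Dawley rats, 3 months old, whose plantaris tendon was cut across its full thickness and sutured at once while the neighbouring Achilles tendon was left whole. Both groups were gavaged 2 times a day with a hydroxypropyl methylcellulose and Tween suspension, which carried GSK2894631A at 2 mg/kg in one group and no compound in the other. The 7D 6 mg/kg group (n = 3), the 21D 0 and 2 mg/kg groups (n = 5 each) and control tendons without surgery or compound (n = 3) are given beside it where they bear on a gene. The 21D 6 mg/kg group (n = 5) served only in the fit of all groups and in defining the genes of skeletal muscle. Of 13124 genes listed, 12558 averaged 3 CPM or more in a group and were tested, and genes of skeletal muscle were then described apart from all others.

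Prostaglandin D2 is a lipid signal that cells make from arachidonic acid: cyclooxygenases form prostaglandin H2, and HPGDS, found mainly in mast cells, macrophages and some lymphocytes, converts it to prostaglandin D2. A cut tendon first fills with inflammatory cells and is then bridged by fibroblasts that lay down a collagen scar. The sliding surface of a tendon carries a thin cell layer that, like the lining of a joint, secretes lubricin, whereas the muscle that pulls on the tendon meets it at the myotendinous junction. A dissected tendon may therefore hold RNA of scar, surface layer, vessels, nerve and muscle in unequal parts. In such bulk samples fewer cells of a type and less RNA per cell cannot be told apart.

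The transcript of the inhibited enzyme, Hpgds (ENSRNOG00000006583, chromosome 4), was low at 7 days. It was counted at 2.00, 0.822, 1.03, 1.77 and 1.79 CPM (counts scaled to a library of 1000000 with TMM factors) in the 5 tendons at 0 mg/kg and at 1.84, 2.66, 4.86 and 1.48 CPM in the 4 tendons at 2 mg/kg. The groups overlapped. On the log2 scale they differed by 0.87 with a standard error of 0.47, which was not past the threshold (adjusted p = 0.398, by the quasi-likelihood F-test of edgeR with p-values adjusted after Benjamini and Hochberg). GSK2894631A acts on the protein, so the transcript does not check whether the enzyme was inhibited. Of the 15 genes of prostaglandin synthesis and transport that could be tested, 0 passed the threshold by edgeR, with 4 at an unadjusted p under 0.05 beside 15.5% of all genes (1942 of 12558), and log2 fold changes from -1.26 to 0.87. The largest of these in size belonged to the inducible cyclooxygenase Ptgs2, at 29.7, 23.1, 19.5, 37.0 and 17.8 CPM at 0 mg/kg and 8.66, 15.8, 9.18 and 8.67 CPM at 2 mg/kg. The values did not overlap, yet the difference of -1.26 (standard error 0.38) was not past the threshold over all genes (adjusted p = 0.0762 from edgeR). The constitutive cyclooxygenase Ptgs1 had a log2 fold change of 0.56 (adjusted p = 0.328), and the prostaglandin E2 synthase Ptges one of 0.04 (adjusted p = 0.949). The importer of prostaglandins Slco2a1 lay at 42.7 to 79.8 CPM at 0 mg/kg and 23.6 to 45.4 CPM at 2 mg/kg (log2 fold change -0.87, adjusted p = 0.296). Among 6 prostanoid receptors 0 were called (0 at an unadjusted p under 0.05), and their log2 fold changes ran from -0.58 for the prostaglandin E2 receptor Ptger4 to 0.94 for Ptger3. The receptors tested were Ptger1 to Ptger4, Ptgfr and Ptgir. No prostaglandin D2 receptor was among them, nor was the other D2 synthase Ptgds among the synthesis genes tested. The paper reports Ptgds and the D2 receptors as not detected.

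Across all 12558 genes tested, 114 were higher at 2 mg/kg (0.908% of genes) and 182 were lower (1.45%) at an adjusted p under 0.05 by edgeR, which together is 2.36% of genes. The higher genes made up 38.5% of calls, and this split moved to 27.99% with scaling by library size only, 26.9% in a fit of the 9 tendons alone and 62.5% with the muscle share of counts as a covariate. All 114 higher genes lay off the muscle class, as did 93.2% of all genes tested (11706). The class joins 4 lists of muscle genes to genes whose level followed the muscle share of counts across the 15 tendons at 21 days (Pearson r of at least 0.8). Of the 182 lower genes, 71 were on the muscle lists, 45 were muscle-tracking and 66 lay off the class. The median log2 fold change was 0.001 over all genes, 1.11 over the 114 and -0.88 over the 66. Between the groups 81 of the 114 and 43 of the 66 had no overlap, against 6.65% of all genes, a count made on the tendons that gave the calls and so no separate result. In 62 of the 114 and 29 of the 66 the change was at least 2-fold.

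Total counts were 31527157 to 38449256 per tendon at 0 mg/kg and 14958208 to 33305123 at 2 mg/kg, with replicates 4 and 5 at 17826289 and 14958208. The adipocyte marker list summed to 5211 and 4472 CPM in these 2 tendons, 1729 and 2213 CPM in replicates 2 and 3 and 1133 to 2660 CPM at 0 mg/kg, and the Schwann cell list to 1096 and 1019 CPM, 778 and 748 CPM and 582 to 675 CPM. Prg4, Clic5, Sema5a and Enpp2, described next, were also highest in these 2 tendons, and the part of such markers in the calls was not tested. Those 2 shallowest tendons both exceeded the other 2 tendons of their group in 62 of the 114 higher genes (54.4%) and in 17.0% of all genes. The deeper replicates 2 and 3 both lay above every 0 mg/kg tendon in 88 of the 114. With replicates 4 and 5 left out, a choice made after the data were seen, 4 genes were higher and 0 lower (1229 at an unadjusted p under 0.05). The 4 were the water channel gene Aqp3, whose mean was 0.283 ± 0.137 CPM (SD) in vehicle and 3.64 ± 1.66 CPM in treated tendons, and the hair keratins Krt31, Krt71 and Krt73. These keratins were high in replicate 3 alone. That fit kept only 2 treated tendons, and no other pair was left out. Skeletal muscle genes lost their calls too, although the muscle share of counts was 0.0391 and 0.0393% in the kept tendons. Having fewer tendons and lacking these 2 cannot be told apart there. With replicate 5 alone left out, 41 genes were higher and 84 lower. When all tendons were thinned to the lowest total, 104 genes were higher and 155 lower. With the muscle share of counts as a covariate 228 genes off the class were higher and 292 lower, and 55 of the 114 and 43 of the 66 were among them. That share was 0.27 to 1.65% at 0 mg/kg and 0.0391 to 0.044% at 2 mg/kg. The groups did not overlap in it, so no covariate result given here can separate muscle content from dose.

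**Figure D1:**
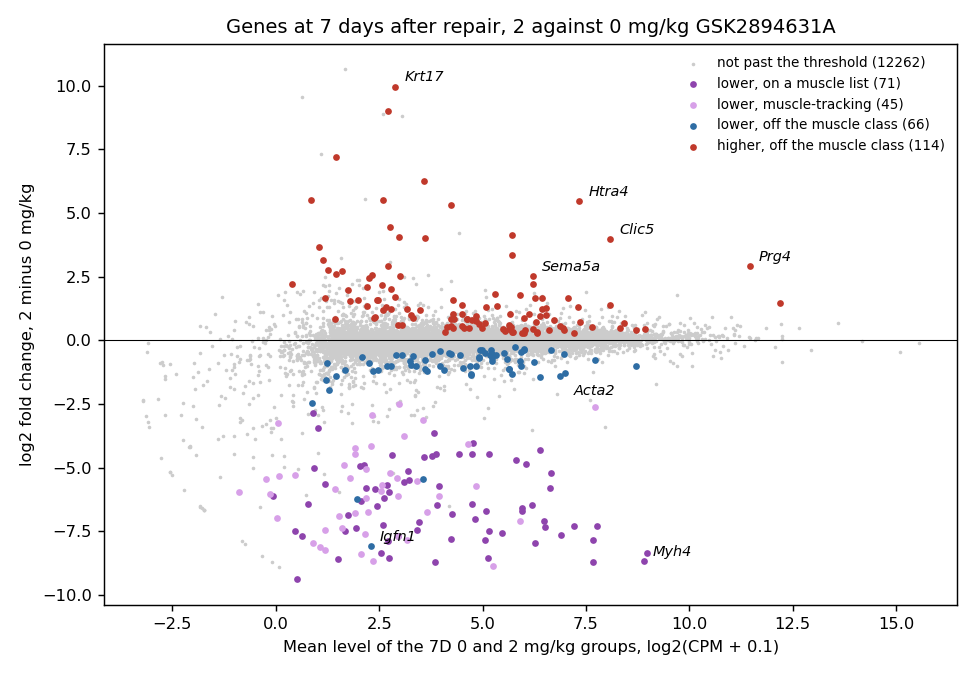
Each point is a gene, with the mean level of the 7D 0 and 2 mg/kg groups in log2(CPM + 0.1) on the x axis and the log2 fold change of 2 against 0 mg/kg on the y axis. Colours mark the 114 genes that were higher, all off the muscle class, and the 71 listed muscle genes, 45 muscle-tracking genes and 66 other genes that were lower; the muscle genes form the cloud far below 0.

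Genes known from the joint lining and the tendon surface were among the most changed. This set of 5 genes, like the other gene groups named in these paragraphs on single genes, was put together after the values were seen and describes the calls without testing a theme. Prg4 (ENSRNOG00000002385, chromosome 13) encodes lubricin, the glycoprotein that lets tendon and cartilage surfaces slide. It was counted at 870, 604, 374, 576 and 901 CPM in the tendons at 0 mg/kg and at 2848, 2156, 5947 and 8950 CPM at 2 mg/kg, so that the lowest treated tendon stood above the highest vehicle tendon. It was 7.48-fold higher (log2 fold change 2.90, standard error 0.48, adjusted p = 0.0013 from edgeR). Control tendons lay at 215 to 1268 CPM. Clic5 (ENSRNOG00000047218, chromosome 9), a chloride channel family protein that binds the actin cytoskeleton, was at 31.9, 29.6, 14.5, 56.5 and 29.7 CPM at 0 mg/kg and at 365, 153, 750 and 775 CPM at 2 mg/kg. Its level was 15.7-fold higher (log2 fold change 3.98, standard error 0.67, adjusted p = 0.00143), and the treated tendons spanned the 419 to 475 CPM of control tendons while every vehicle tendon lay under it.

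The secreted serine protease Htra4 was at 4.25, 1.62, 2.60, 13.5 and 13.8 CPM at 0 mg/kg and at 145, 88.5, 531 and 497 CPM at 2 mg/kg. Its log2 fold change of 5.46 had a wide standard error of 1.31 (adjusted p = 0.022 from edgeR). Every treated tendon was above every vehicle tendon, and also above the control tendons at 1.51 to 3.27 CPM. Itgb8, the integrin subunit that helps to activate latent TGF-beta, was at 1.17 to 1.95 CPM at 0 mg/kg and 4.43 to 18.3 CPM at 2 mg/kg (log2 fold change 2.90, adjusted p = 0.0251). Hbegf, a growth factor that activates the EGF receptor, was at 17.0, 20.9, 33.2, 43.2 and 20.5 CPM against 68.7, 31.4, 123 and 144 CPM (log2 fold change 1.77, adjusted p = 0.03). For Hbegf the treated replicate 3 fell within the vehicle range, and the other 3 treated tendons lay above it. Prg4 and Clic5 stayed past the threshold whichever of the 9 tendons was left out, and Htra4, Itgb8 and Hbegf did so in 6, 3 and 3 of the 9. With the muscle share as a covariate Htra4 (adjusted p = 0.154) and Itgb8 (adjusted p = 0.208) were not past it.

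**Figure D2:**
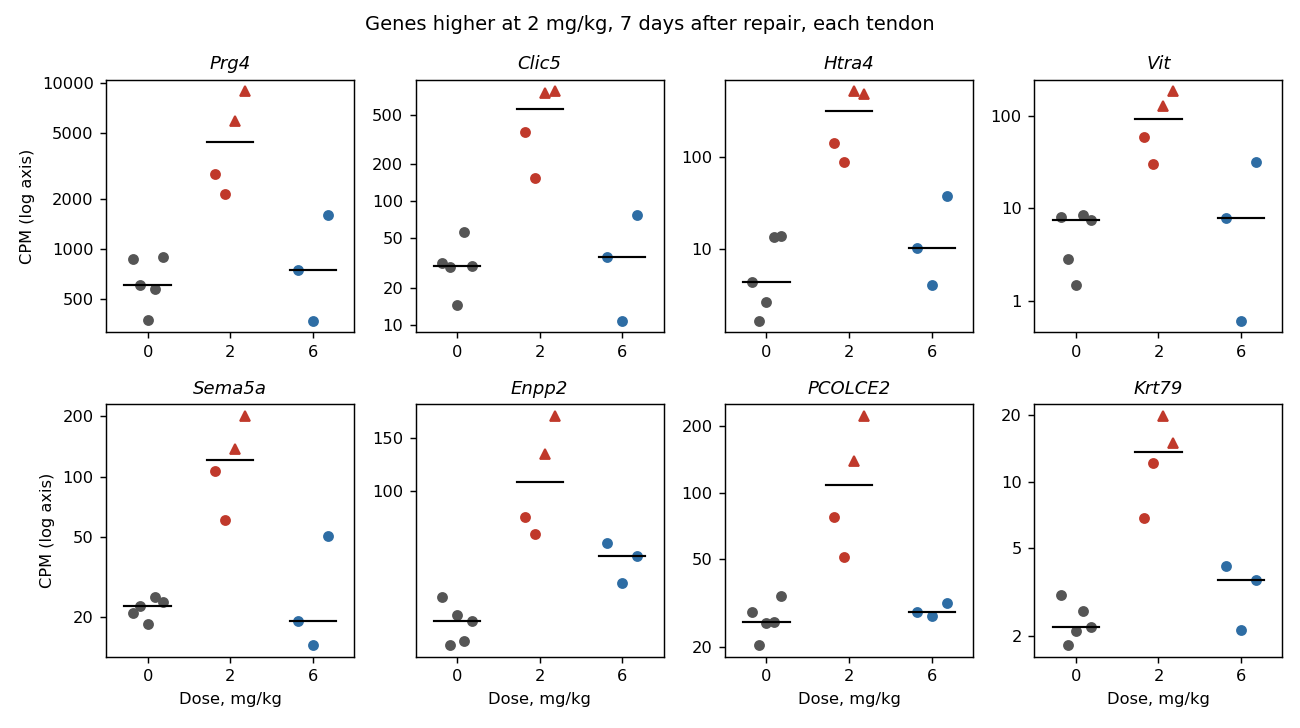
Each point is a tendon at 7 days after repair, with its CPM on a log axis and the dose of GSK2894631A in mg/kg on the x axis; the line is the group median and triangles are replicates 4 and 5 at 2 mg/kg, the 2 with the lowest total counts. In all 8 genes the tendons at 2 mg/kg lie above those at 0 mg/kg, for Prg4 at 2156 to 8950 against 374 to 901 CPM. Most tendons at 6 mg/kg lie near the 0 mg/kg level, but for Enpp2 all of them lie above it, at 49.97 to 67.6 against 31.0 to 44.8 CPM.

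The sequences just upstream of the start sites are shown for Prg4 and Clic5, the higher genes described most fully, for the smooth muscle actin Acta2, which was lower, and for the fast myosin Myh4, the leading muscle gene, since members that move together may be compared in their promoters. They are 250 bases up to the annotated start, 5′ to 3′ on the strand of the gene, from RefSeq on build GRCr8, and lie at chr13:65054226-65054475, minus strand for Prg4, chr9:24310965-24311214, minus strand for Clic5, chr1:241172504-241172753, minus strand for Acta2 and chr10:52421898-52422147, plus strand for Myh4. Capitals mark matches on either strand to the E-box CANNTG, the AP-1 site TGANTCA, the cyclic AMP element TGACGTCA, the CArG box (CC, a run of A or T, then GG) and the strict MEF2 site (CTA, a run of A or T, then TAG), and on the gene's own strand to TATAAA.
Prg4: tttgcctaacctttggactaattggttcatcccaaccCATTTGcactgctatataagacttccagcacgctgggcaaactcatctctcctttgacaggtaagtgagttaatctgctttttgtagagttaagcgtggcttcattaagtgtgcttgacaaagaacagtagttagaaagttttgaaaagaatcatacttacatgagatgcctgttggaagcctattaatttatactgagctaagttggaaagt
Clic5: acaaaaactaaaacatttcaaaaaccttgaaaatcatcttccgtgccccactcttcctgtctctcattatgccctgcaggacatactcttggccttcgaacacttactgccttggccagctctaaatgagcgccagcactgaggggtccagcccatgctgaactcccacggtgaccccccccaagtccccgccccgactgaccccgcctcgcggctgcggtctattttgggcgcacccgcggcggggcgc
Acta2: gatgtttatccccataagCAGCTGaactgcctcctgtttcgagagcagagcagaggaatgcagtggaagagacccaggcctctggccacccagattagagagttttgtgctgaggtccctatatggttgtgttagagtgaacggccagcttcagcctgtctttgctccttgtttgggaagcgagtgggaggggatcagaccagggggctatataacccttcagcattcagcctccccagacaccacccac
Myh4: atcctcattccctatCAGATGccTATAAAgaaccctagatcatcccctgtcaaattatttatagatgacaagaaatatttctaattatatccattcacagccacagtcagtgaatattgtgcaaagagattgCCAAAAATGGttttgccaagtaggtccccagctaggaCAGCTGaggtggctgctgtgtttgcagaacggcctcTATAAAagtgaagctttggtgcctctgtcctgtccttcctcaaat
Prg4 held 1 match, an E-box from -213 to -208 counted from the start site, and Clic5 held 0. Acta2 held 1 E-box from -232 to -227. Myh4 held 5 matches: E-boxes from -235 to -230 and from -81 to -76, TATAAA from -227 to -222 and from -45 to -40, and a CArG box from -118 to -109. Looser forms of these motifs, which other bases at their ends or inside them would allow, were not searched. In the Acta2 sequence, ccctatatgg and ccttgtttgg each miss the CArG pattern by 1 base inside the run of A or T and are not marked. The absence of a marked CArG box there holds for the strict pattern only.

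Over all genes tested, 9468 had such a promoter, among them 73 of the 114 higher genes, 53 of the 66 lower genes off the class and 59 of the 71 lower genes of the muscle lists. An E-box was in 56.3% of all promoters, in 49 of the 73 (67.1%), in 27 of the 53 (50.9%) and in 51 of the 59 (86.4%). TATAAA was in 4.26% of all, in 7 of the 73, in 3 of the 53 and in 14 of the 59. The strict MEF2 site was in 0.37% of all, in 0 of the 73, in 0 of the 53 and in 9 of the 59. The AP-1 site was in 4.49% of all, in 5 of the 73, in 1 of the 53 and in 3 of the 59, the CArG box in 1.17%, 2, 2 and 2, and the cyclic AMP element in 2.83%, 1, 1 and 0. The E-box letters are short, can overlap other matches, and occur in most promoters. A match is a description of the letters and not of binding.

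A second group of 10 higher genes encodes matrix proteins or enzymes that process them, with log2 fold changes from 1.04 to 5.46. Htra4, given with the surface genes at 5.46, is counted here too. Of the 10, 8 had no overlap between the doses, beside 81 of all 114 higher genes and 6.65% of all genes tested. The 10 were picked from genes called in these same tendons, so this count is no separate result. Vit encodes vitrin, a matrix protein with von Willebrand domains, and was at 7.96, 2.82, 1.46, 8.41 and 7.49 CPM at 0 mg/kg and at 59.2, 29.9, 126 and 183 CPM at 2 mg/kg (log2 fold change 4.14, standard error 0.91, adjusted p = 0.0116 from edgeR). PCOLCE2, an enhancer of the enzyme that trims procollagen, was at 28.7, 20.3, 25.5, 25.9 and 34.0 CPM against 77.9, 51.3, 139 and 223 CPM (log2 fold change 2.19, standard error 0.42, adjusted p = 0.00489). Gsn, which encodes the actin-severing protein gelsolin in cellular and secreted forms, was among the most abundant at 1395 to 4499 CPM against 4121 to 10110 CPM, and the ranges met because vehicle replicate 1 was high (log2 fold change 1.47, adjusted p = 0.0187). Pcsk6, a convertase that activates growth factor precursors, was 1.64 higher on the log2 scale (adjusted p = 0.0045).

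Col22a1, a collagen placed at tissue junctions such as that between muscle and tendon, was at 2.44, 0.905, 1.01, 32.3 and 10.4 CPM at 0 mg/kg and at 98.6, 53.9, 71.9 and 155 CPM at 2 mg/kg, with 152 to 411 CPM in control tendons (log2 fold change 3.33, standard error 0.87, adjusted p = 0.0364). Vehicle replicates 4 and 5 were far above the other vehicle tendons. Col22a1 was called in 2 of the 9 fits that left out a tendon, whereas PCOLCE2 and Pcsk6 were called in all 9. Serpina1, an inhibitor of serine proteases, was at 0.0548 to 2.11 CPM against 11.6 to 74.9 CPM (log2 fold change 5.30, adjusted p = 0.0466), with 2 to 85 counts in each vehicle tendon. It was called in 1 of the 9 fits that left out a tendon and not with the covariate (adjusted p = 0.166 from edgeR). The basement membrane chain Col4a4 was 1.04 higher (adjusted p = 0.0491), the transglutaminase F13a1 1.39 (adjusted p = 0.0408) and the proteoglycan Gpc3 1.56 (adjusted p = 0.0314), all on the log2 scale. With the muscle share as a covariate 5 of the 10 were past the threshold.

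Genes for secreted signals and their receptors formed another group, of 7 genes that rose by 0.71 to 2.51 on the log2 scale. Sema5a (ENSRNOG00000011977, chromosome 2), a semaphorin that guides axons and endothelial cells, was at 20.8, 22.7, 18.4, 25.1 and 23.6 CPM at 0 mg/kg and at 106, 60.5, 137 and 201 CPM at 2 mg/kg. The vehicle tendons were tightly grouped and all treated tendons stood above them (log2 fold change 2.51, standard error 0.39, adjusted p = 0.00117 from edgeR). Enpp2 encodes autotaxin, the secreted enzyme that makes lysophosphatidic acid, and was at 44.8, 31.0, 38.9, 31.9 and 37.2 CPM against 82.2, 72.1, 133 and 177 CPM (log2 fold change 1.66, standard error 0.27, adjusted p = 0.00117). Lpar1, a receptor for lysophosphatidic acid, was at 115 to 137 CPM against 158 to 257 CPM (log2 fold change 0.71, adjusted p = 0.0115). Both the enzyme and the receptor were thus higher in every treated tendon.

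Wif1, a secreted inhibitor of Wnt ligands, was at 2.04 to 3.68 CPM at 0 mg/kg and 5.14 to 12.3 CPM at 2 mg/kg (log2 fold change 1.57, standard error 0.27, adjusted p = 0.00218 from edgeR). The hedgehog effector Gli1 was 0.88 higher on the log2 scale (adjusted p = 0.0363), the guidance cue Ntn1 1.59 (adjusted p = 0.0102) and the Slit receptor Robo2 0.92 (adjusted p = 0.0338). Sema5a, Enpp2 and Wif1 remained past the threshold in all 9 fits that left out a tendon, and Robo2, Gli1, Ntn1 and Lpar1 lost it in some. The muscle share as a covariate left 6 of the 7 past it, and Lpar1 missed it narrowly (adjusted p = 0.0527).

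Enzymes of oxidation and conjugation made up 10 of the higher genes, by 0.38 to 2.02 on the log2 scale. The flavin monooxygenase Fmo2 was at 3.13, 3.37, 1.37, 1.33 and 4.22 CPM at 0 mg/kg and at 6.41, 6.59, 14.9 and 16.1 CPM at 2 mg/kg (log2 fold change 2.02, standard error 0.40, adjusted p = 0.00613 from edgeR), below the 36.7 to 88.4 CPM of control tendons. Cyp1b1, a cytochrome P450 of steroids and xenobiotics, was at 31.7 to 61.1 CPM against 66.4 to 198 CPM (log2 fold change 1.67, adjusted p = 0.0245), and the epoxide hydrolase Ephx1 was 0.82 higher (adjusted p = 0.0462). The retinoic acid-forming Aldh1a3 was 1.83 higher (adjusted p = 0.0325) and the sulfotransferase Sult1a1 1.05 (adjusted p = 0.00954). On the list of 15 xenobiotic and antioxidant response genes Cyp1b1 and Ephx1 were the 2 called, and the other 13 were not past the threshold. Fmo2 was the only one of the 10 genes called in all 9 fits that left out a tendon, and 4 of the 10 were called with the covariate.

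Regulators of transcription were 12 of the higher genes. Gli1, given with the secreted signals and receptors, is counted among them too. All 12 had no overlap between the doses, as did 81 of all 114 higher genes and 6.65% of all genes tested. The 12 were picked from genes called in these same tendons, so this count is no separate result. Of the 12, 3 were called in all 9 fits that left out a tendon and 5 with the muscle share as a covariate. The homeobox gene Dlx3, known from hair follicle, tooth and bone, was at 0.329, 0.301, 0.336, 3.19 and 2.75 CPM at 0 mg/kg and at 16.6, 19.4, 29.4 and 25.4 CPM at 2 mg/kg (log2 fold change 4.03, standard error 0.88, adjusted p = 0.0114 from edgeR). Sox5, a factor of cartilage and glia, was at 1.01 to 2.23 CPM against 2.97 to 9.29 CPM (log2 fold change 2.10, adjusted p = 0.0103). Tbx4, which patterns the hindlimb, was at 1.71 to 3.24 CPM against 4.97 to 9.44 CPM (log2 fold change 1.35, adjusted p = 0.0181). The thyroid hormone receptor Thrb was 0.82 higher (adjusted p = 0.0143), and its corepressor Hr 1.31 (adjusted p = 0.0136). The clock repressor Nr1d2 was higher by 0.49 (adjusted p = 0.0346), the single call among 15 clock genes. The stress factor Atf5 was 0.78 higher (adjusted p = 0.0298), the 1 call among 20 genes of the endoplasmic reticulum list.

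Keratins and genes of the skin barrier were 11 of the higher genes and did not behave alike across tendons. Krt17, Krt25, Krt31, Krt71, Krt73 and the galectin Lgals7, which belong to hair follicle and epidermis, were high in 1 tendon. Krt17 was at 58.1 CPM in 2 mg/kg replicate 3 and at most 0.258 CPM in the other 8 tendons compared. Krt71 was at 93.7 CPM in that tendon and at most 0.595 CPM in the others, and Krt25 at 51.8 CPM and at most 0.0744 CPM. Without replicate 3, Krt17 was not past the threshold (adjusted p = 0.651 from edgeR) and Krt25, Krt31, Krt71, Krt73 and Lgals7 did not pass the filter on low values. The basal keratinocyte markers Krt5 and Krt14 were at 65.3 and 47.6 CPM in that tendon and at most 0.129 and 0.0744 CPM in the other 8. The keratinocyte list summed to 249.5 CPM in replicate 3 and to 14.2, 19.1 and 22.2 CPM in the other treated tendons, beside 14.4 to 19.7 CPM at 0 mg/kg. With replicate 3 left out, 153 genes were higher and 141 lower, and 103 of the 114 higher genes were still among them. Reads of closely related keratins could be split in counting.

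Krt79 differed from these. It was at 3.07, 1.81, 2.10, 2.58 and 2.18 CPM at 0 mg/kg and at 6.85, 12.1, 19.9 and 15.0 CPM at 2 mg/kg, higher in all 4 treated tendons (log2 fold change 2.52, standard error 0.35, adjusted p = 0.00117 from edgeR, and 0.00147 without replicate 3). The plakin family members Evpl and Ppl, which link junctions to keratin filaments, were likewise higher in every treated tendon. Evpl was at 1.48 to 3.13 CPM against 3.87 to 15.3 CPM (log2 fold change 2.17, adjusted p = 0.00271) and Ppl at 30.2 to 71.4 CPM against 108.5 to 143 CPM (log2 fold change 1.24, adjusted p = 0.0115). Slurp1, a secreted protein of the epidermis, was at 0.0839 to 0.943 CPM against 0.897 to 3.34 CPM (log2 fold change 2.22, adjusted p = 0.0466). For Slurp1 the treated replicate 3 lay just under vehicle replicate 5. It was called in 2 of the 9 fits that left out a tendon and not with the muscle share as a covariate (adjusted p = 0.158 from edgeR). The type II keratin Krt2 was at 1.19 to 3.35 CPM against 2.80 to 8.31 CPM (log2 fold change 1.58, adjusted p = 0.0457), and treated replicate 3 fell inside the vehicle range. Of the 11 keratin and skin barrier genes, 3 were called in all 9 fits that left out a tendon and 8 with the covariate.

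The remaining higher genes chosen for small adjusted p or large fold change belonged to none of these groups. The orphan receptor Gpr37 was at 0.521 to 1.04 CPM at 0 mg/kg and 2.55 to 8.29 CPM at 2 mg/kg (log2 fold change 2.73, adjusted p = 0.0014 from edgeR). Glcci1, first known as a glucocorticoid-induced transcript, was at 18.8 to 20.9 CPM against 23.1 to 44.1 CPM (log2 fold change 0.79, adjusted p = 0.00271). The calcineurin regulator Rcan2 was at 15.9 to 33.3 CPM against 36.2 to 68.2 CPM (log2 fold change 1.33, adjusted p = 0.00357). The membrane protein gene Tmem196 was at 0.604 to 1.22 CPM against 2.36 to 24.9 CPM (log2 fold change 4.05, adjusted p = 0.00408), and Hhipl2, a relative of a hedgehog-binding protein, at 0.056 to 0.62 CPM against 2.80 to 21.3 CPM (log2 fold change 5.49, standard error 1.28, adjusted p = 0.0188). Hhipl2 was called in 5 of the 9 fits that left out a tendon and not with the muscle share as a covariate (adjusted p = 0.116 from edgeR).

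Among the 66 lower genes off the muscle class the changes were smaller than among the higher genes, with a median fold of 1.84 against 2.16. A group of 8 encodes actin and proteins bound to it, and fell by 0.53 to 1.28 on the log2 scale. Acta2 (ENSRNOG00000058039, chromosome 1) encodes smooth muscle actin, the marker of smooth muscle, pericytes and myofibroblasts. It was at 157, 138, 242, 263 and 99.8 CPM at 0 mg/kg and at 59.3, 65.1, 90.2 and 81.8 CPM at 2 mg/kg. The highest treated tendon was just under the lowest vehicle tendon (log2 fold change -1.28, standard error 0.33, adjusted p = 0.0359 from edgeR). Control tendons had 32.1 to 98.8 CPM. The crosslinker Actn1 was at 126 to 178 CPM against 95.01 to 111 CPM (log2 fold change -0.53, adjusted p = 0.0364), the bundling protein Fscn1 at 37.6 to 114 CPM against 27.6 to 52.7 CPM (-1.01, adjusted p = 0.0296) and the LIM protein Ajuba at 11.4 to 24.7 CPM against 5.42 to 10.1 CPM (-1.20, adjusted p = 0.0126). None of the 8 was called in all 9 fits that left out a tendon, and with the muscle share as a covariate 6 of the 8 were called, while Acta2 (adjusted p = 0.0942) and Fscn1 (adjusted p = 0.0913) were not.

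Matrix and vessel genes were 7 of the lower genes. Notch3, the receptor that marks mural cells of vessels, was at 126, 136, 147, 133 and 68.7 CPM at 0 mg/kg and at 18.5, 45.2, 74.4 and 43.6 CPM at 2 mg/kg, where vehicle replicate 5 lay within the treated range (log2 fold change -1.43, standard error 0.34, adjusted p = 0.0226 from edgeR). Col18a1, the basement membrane collagen that yields endostatin, was at 441, 499.5, 792, 587 and 460 CPM against 234, 268, 297 and 302 CPM (log2 fold change -1.01, standard error 0.20, adjusted p = 0.00613). It was the 1 gene of the 7 called in all 9 fits that left out a tendon. Thbs1, the matricellular inhibitor of vessel growth, was at 65.1, 145, 231, 259 and 145 CPM against 52.6, 63.6, 72.5 and 66.5 CPM, with vehicle replicate 1 inside the treated range (log2 fold change -1.41, adjusted p = 0.0423). The protease Adamts1 was at 78.7 to 118 CPM against 38.8 to 74.5 CPM (log2 fold change -0.87, adjusted p = 0.0387), and the peroxidasin Pxdn, which crosslinks collagen IV, fell by 0.76 on the log2 scale (adjusted p = 0.0363).

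**Figure D3:**
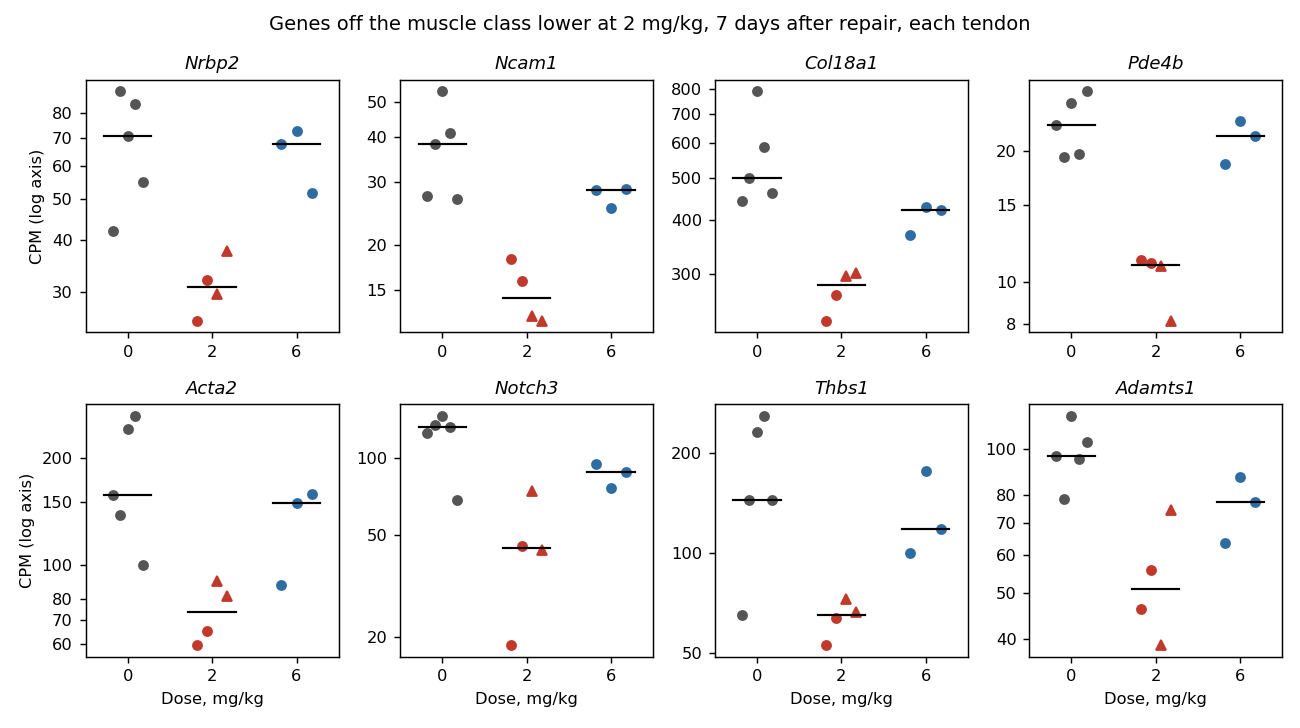
Each point is a tendon at 7 days after repair, with CPM on a log axis, the dose in mg/kg on the x axis, a line at the group median and triangles for replicates 4 and 5 at 2 mg/kg. Nrbp2, Ncam1, Col18a1, Pde4b, Acta2 and Adamts1 do not overlap between 0 and 2 mg/kg, while vehicle replicate 5 of Notch3 at 68.7 CPM and vehicle replicate 1 of Thbs1 at 65.1 CPM lie within the treated range.

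Genes of nerve and of adhesion between cells were 11 of the lower genes. The neural cell adhesion molecule Ncam1, present on nerve and on regenerating muscle, was at 27.4, 38.2, 53.7, 41.0 and 26.97 CPM at 0 mg/kg and at 18.3, 15.9, 12.7 and 12.3 CPM at 2 mg/kg (log2 fold change -1.34, standard error 0.26, adjusted p = 0.00531 from edgeR). The intermediate filament gene of peripheral nerve, Prph, had a log2 fold change of -1.03 (adjusted p = 0.0231), and the growth cone protein Basp1 had a log2 fold change of -0.83 (adjusted p = 0.0339). The planar polarity receptor Ptk7 was at 15.2 to 64.7 CPM against 11.2 to 18.8 CPM, so the ranges met (log2 fold change -1.38, adjusted p = 0.0115). Of the lower genes with the smallest adjusted p, Nrbp2, a pseudokinase, was at 42.0 to 90.4 CPM against 25.7 to 37.7 CPM (log2 fold change -1.13, standard error 0.22, adjusted p = 0.00517). Pde4b, a phosphodiesterase that degrades cyclic AMP in immune cells, was at 22.9, 19.4, 25.7, 19.6 and 27.4 CPM against 11.2, 11.05, 10.9 and 8.16 CPM (log2 fold change -1.15, standard error 0.24, adjusted p = 0.00766). Without overlap, too, fell the exchange factor gene Plekhg2 (log2 fold change -0.81), the adhesion receptor Adgrl2 (-1.01), the repressor Etv6 (-0.61) and Prr7 (-0.96). Genes of RNA processing such as the nonsense-decay helicase Upf1 (-0.39) and the splicing regulator Sfswap (-0.28) formed a group of 6, with log2 fold changes from -0.50 to -0.28. Of these 6 none was called in all 9 fits that left out a tendon and 3 were called with the covariate, and of the 11 nerve and adhesion genes 2 and 7 were.

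Also counted off the class were 2 genes known from striated muscle, Igfn1 and Ankrd1, whose r with the muscle share at 21 days was 0.387 and 0.765. Igfn1 was at 13.99, 9.43, 4.70, 17.6 and 2.43 CPM at 0 mg/kg and at 0.0737, 0, 0.0546 and 0 CPM at 2 mg/kg, which is 3 counts in all 4 treated tendons against 1727 in the vehicle tendons. The ratio was 303 (95% counting interval 104 to 1472). The stretch-responsive repeat protein gene Ankrd1 was at 10.1 to 44.4 CPM against 0.337 to 0.771 CPM (log2 fold change -5.43, standard error 1.04, adjusted p = 0.00475 from edgeR). The kallikrein Klk1 moved as widely, at 0.252 to 18.1 CPM against 0.0561 to 0.219 CPM (log2 fold change -6.23, standard error 1.52, adjusted p = 0.0245). Klk1 was called in 4 of the 9 fits that left out a tendon and not with the muscle share as a covariate (adjusted p = 0.189 from edgeR).

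Skeletal muscle transcripts themselves took a far smaller share of counts in treated tendons. The 4 muscle lists held 0.757, 1.65, 0.27, 1.29 and 0.312% of counts in the vehicle tendons but 0.0391, 0.0393, 0.0428 and 0.044% in the treated ones, with 24.3 to 32.9% in control tendons. The share was 16.3-fold lower at 2 mg/kg (log2 difference -4.02), with p = 0.00794 in an exact two-sided permutation test over the 9 tendons, the smallest p that their 126 splits allow. Of 105 muscle-list genes tested 71 were lower, 0 were higher and 34 were not past the threshold, and the median log2 fold change was -5.63. By role, 36 of 51 contractile genes, 12 of 19 calcium-handling genes, 11 of 16 energy genes and 12 of 19 signalling and myogenic genes fell. Myh4 (ENSRNOG00000049695, chromosome 10), the myosin of the fastest fibres, was at 749, 1722, 387, 1633 and 254 CPM at 0 mg/kg and at 2.06, 1.88, 3.88 and 1.48 CPM at 2 mg/kg (log2 fold change -8.68, standard error 1.29, adjusted p = 0.00117 from edgeR).

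Regulators of myogenesis were among the lower muscle genes. Myod1 had 0 counts in all 4 treated tendons and 483 in the vehicle tendons, which is at least 84.8-fold lower against a floor of 3 counts over the group. Myog, which drives fusion, had 1 count against 523 (ratio 276, 95% counting interval 49.3 to 10910), and the developmental myosin Myh8 had 1 count against 983 (ratio 518, interval 92.8 to 20480). The delta subunit of the acetylcholine receptor, Chrnd, had 3 counts against 588 (ratio 103, interval 35.2 to 502). These intervals cover counting error only. Not all muscle genes were past the threshold. The slow myosin Myh7 had a log2 fold change of -6.52 (adjusted p = 0.0839) and the slow troponin Tnnt1 one of -4.44 (adjusted p = 0.0698). The ubiquitin ligase subunit gene Fbxo32 had a log2 fold change of -0.44 (adjusted p = 0.514). Vehicle tendons differed among themselves by more than treated ones did, since the muscle share spanned 0.27 to 1.65% at 0 mg/kg. Because the shares of the 2 groups did not overlap at 7 days, the covariate fit given above cannot separate muscle content from dose. The part that muscle content has in the changes off the muscle class was not tested.

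**Figure D4:**
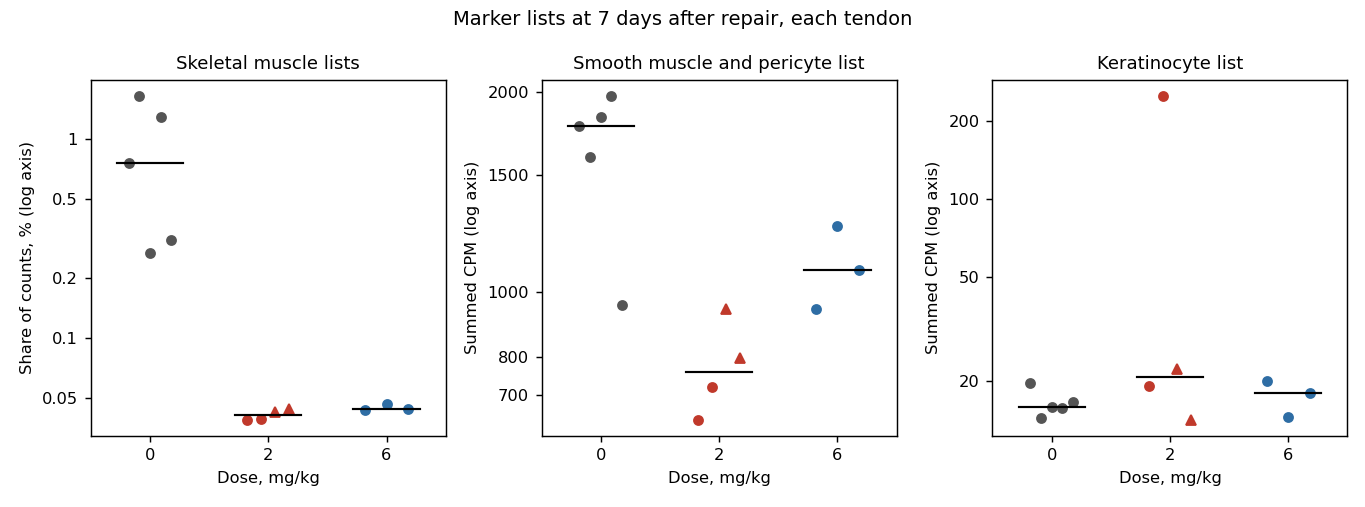
Each point is a tendon at 7 days after repair, by dose in mg/kg, with a line at the group median, triangles for replicates 4 and 5 at 2 mg/kg and log y axes: the share of counts on the skeletal muscle lists in percent, and the summed CPM of the smooth muscle and pericyte list and of the keratinocyte list. The muscle share is 0.27 to 1.65% at 0 mg/kg and 0.0391 to 0.044% at 2 mg/kg, and the keratinocyte list is raised in replicate 3 at 2 mg/kg alone, at 249.5 CPM.

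Other cell types were followed by lists of their markers. The smooth muscle and pericyte list had a median log2 fold change of -0.98 over its 14 members, beside 0.001 for all genes, and its members summed to 958 to 1972 CPM at 0 mg/kg and 643 to 944 CPM at 2 mg/kg. Without Des, a sum added after the data were seen, these were 744 to 1695 CPM and 578 to 884.5 CPM and overlapped. Of the 14 members 3, Des among them, were in the muscle class. The median and the sum without Des thus still held members of that class. Acta2, Notch3 and Des fell, and Cspg4, the pericyte proteoglycan NG2, rose from 39.1 to 49.6 CPM at 0 mg/kg to 63.9 to 119 CPM at 2 mg/kg (log2 fold change 0.88, adjusted p = 0.0386 from edgeR). Cspg4 was called in 2 of the 9 fits that left out a tendon and was not past the threshold with the muscle share as a covariate (adjusted p = 0.18). Desmin (Des) is also a skeletal muscle gene and was muscle-tracking. Its log2 fold change was -2.61 (adjusted p = 0.0295), and -0.06 (adjusted p = 0.924) with the muscle share as a covariate. Lyve1, a receptor of lymphatic endothelium and of a subset of resident macrophages, was at 93.0, 66.9, 66.4, 62.1 and 166 CPM at 0 mg/kg and at 173, 176, 243 and 301 CPM at 2 mg/kg (log2 fold change 1.30, standard error 0.35, adjusted p = 0.044). Lyve1, too, was called in 2 of those 9 fits and not with the covariate (adjusted p = 0.238). The other 4 lymphatic genes were not past the threshold.

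The lists of macrophage, neutrophil, T and NK cell, B and plasma cell, mast cell, dendritic cell, endothelial, tenocyte, fibroblast, Schwann cell, adipocyte, cartilage, osteoblast, osteoclast, erythroid, platelet and keratinocyte genes had 0 calls. The keratinocyte list had a median log2 fold change of 5.53 over 7 genes, and its summed level was raised in 1 tendon, as given with the keratins. The macrophage list summed to 3515 to 8158 CPM at 0 mg/kg and 4069 to 8378 CPM at 2 mg/kg, and Cd68 had a log2 fold change of 0.11 (adjusted p = 0.947 from edgeR). All 6 neutrophil genes tested had a negative log2 fold change (median -0.68), as did all 11 T and NK cell genes (median -0.54), with wide spread between tendons. The calgranulin S100a8 was at 9.06 to 25.3 CPM against 2.505 to 22.3 CPM (adjusted p = 0.499). Of the mast cell genes, the protease gene Cpa3 was at 8.72 to 45.0 CPM against 6.15 to 37.6 CPM (adjusted p = 0.963). All 10 adipocyte genes had a positive log2 fold change (median 0.88), and Adipoq was at 78.5 to 283 CPM against 79.3 to 757 CPM (adjusted p = 0.315). The tendon transcription factor Scx was at 21.9 to 91.5 CPM against 14.9 to 28.4 CPM (log2 fold change -1.09, adjusted p = 0.111). Vessel endothelium summed to 1001 to 1497 CPM against 779 to 1239 CPM, and the Schwann cell list, given above, did not overlap.

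Of 48 lists outside skeletal muscle 38 had no member called by edgeR (63 of their 529 tested entries at an unadjusted p under 0.05, beside the 15.5% of all genes). Beside the cell types and prostaglandin lists above, these were leukotriene, chemokine, chemokine receptor, cytokine, interferon response, TGF-beta, IGF, angiogenic, immediate early, glucocorticoid response, hypoxia and glycolysis, cholesterol synthesis, cell cycle, ribosomal, proteasome, lysosome, metalloproteinase inhibitor, collagen crosslinking and small leucine-rich proteoglycan genes. The chemokine list had 26 genes with a median of -0.06, and the interferon response list 27 genes with a median of 0.17. Of 32 collagens Col22a1 and Col4a4 rose and Col18a1 fell, and the other 29 were not past the threshold, with a median of -0.49 for the list. Most of the list went down, with 24 of the 32 log2 fold changes negative and 8 positive. An unadjusted p under 0.05 by edgeR was found for 16 of the 32, beside 15.5% of all genes. The metalloproteinase list had Adamts1 as its 1 call among 33, the matricellular list Thbs1 among 15, and the axon guidance list Ntn1 and Robo2 among 14. Among the 8 proteoglycans, decorin (Dcn) was at 3038 to 4735 CPM against 4549 to 7103 CPM (log2 fold change 0.65, adjusted p = 0.095 from edgeR). The 2 calls among 70 respiratory chain genes, Cox6a2 and Cox8b, are the muscle forms of their subunits.

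Levels at the higher dose were given side by side, since both doses were compared to the same vehicle tendons. Against 0 mg/kg, 0 genes were higher and 49 lower (0.39% of genes) in 7D 6 mg/kg tendons (n = 3), with 746 at an unadjusted p under 0.05. The 114 higher genes had a median log2 fold change of 0.19 at 6 mg/kg and of 1.11 at 2 mg/kg, and the 66 lower genes one of -0.31 and of -0.88. Prg4 was at 743, 369.5 and 1607 CPM at 6 mg/kg (log2 fold change 0.45, standard error 0.49), Clic5 at 35.7, 10.8 and 77.9 CPM (0.36, standard error 0.66) and Sema5a at 19.1, 14.4 and 50.5 CPM (0.35, standard error 0.41). Replicate 5 was the highest of the 6 mg/kg tendons for all 3 genes. Enpp2 was at 67.6, 49.97 and 61.0 CPM at 6 mg/kg, above every vehicle tendon (31.0 to 44.8 CPM). Acta2 was at 87.8, 149 and 158 CPM (log2 fold change -0.45, standard error 0.35), and Pde4b at 18.7, 23.5 and 21.6 CPM (-0.12, standard error 0.25). The skeletal muscle share at 6 mg/kg, 0.0439 to 0.047%, lay beside 0.0391 to 0.044% at 2 mg/kg, and the muscle lists had a median log2 fold change of -5.08 at 6 mg/kg. Tested directly, the doses differed in 0 genes, with 997 at an unadjusted p under 0.05 and a smallest adjusted p of 0.0805 from edgeR. DESeq2 called 69.

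At 21 days the same dose called 0 genes of the 12558 (0% of genes), with 1078 at an unadjusted p under 0.05 and a smallest adjusted p of 0.229 from edgeR. Those tendons are other animals and share none with the comparison at 7 days. Of the 114 genes higher at 7 days 92 had a positive log2 fold change at 21 days (80.7%), compared to 47.5% of all genes, and the median over the 114 was 0.23. Of the 66 lower genes 44 were negative. All 5 genes of the tendon surface group were positive at 21 days: Htra4 at 1.865 (standard error 1.10), Itgb8 at 0.87, Prg4 at 0.73 (standard error 0.44), Clic5 at 0.35 and Hbegf at 0.32 on the log2 scale. The median tendon for Clic5 was nevertheless lower at 2 mg/kg, at 66.9 CPM (range 23.9 to 336.5) against 94.1 CPM (range 44.0 to 159.9). For the rest of the group the median was higher at 2 mg/kg. Prg4 was at 839 to 2370 CPM at 0 mg/kg and 1454 to 3263 CPM at 2 mg/kg at that time. The effect of the dose differed between the times in 28 genes (0.223%), 5 with a larger and 23 with a smaller log2 fold change at 7 days. Of those 18 were on the muscle lists. Off the class, Krt79 had a difference of 2.255 (adjusted p = 0.0369), Wif1 of 2.04 (adjusted p = 0.0269) and Fmo2 of 2.68 (adjusted p = 0.0322), with log2 fold changes at 21 days of 0.26, -0.47 and -0.66. Igfn1 differed by -8.83 (adjusted p = 0.0269). The others off the class were Dpep1, Agt, Zfp57, Ankrd13b and Fam171a2, named after their values were seen. For Prg4, Clic5 and the other genes of the surface group the difference between times was not past the threshold.

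**Figure D5:**
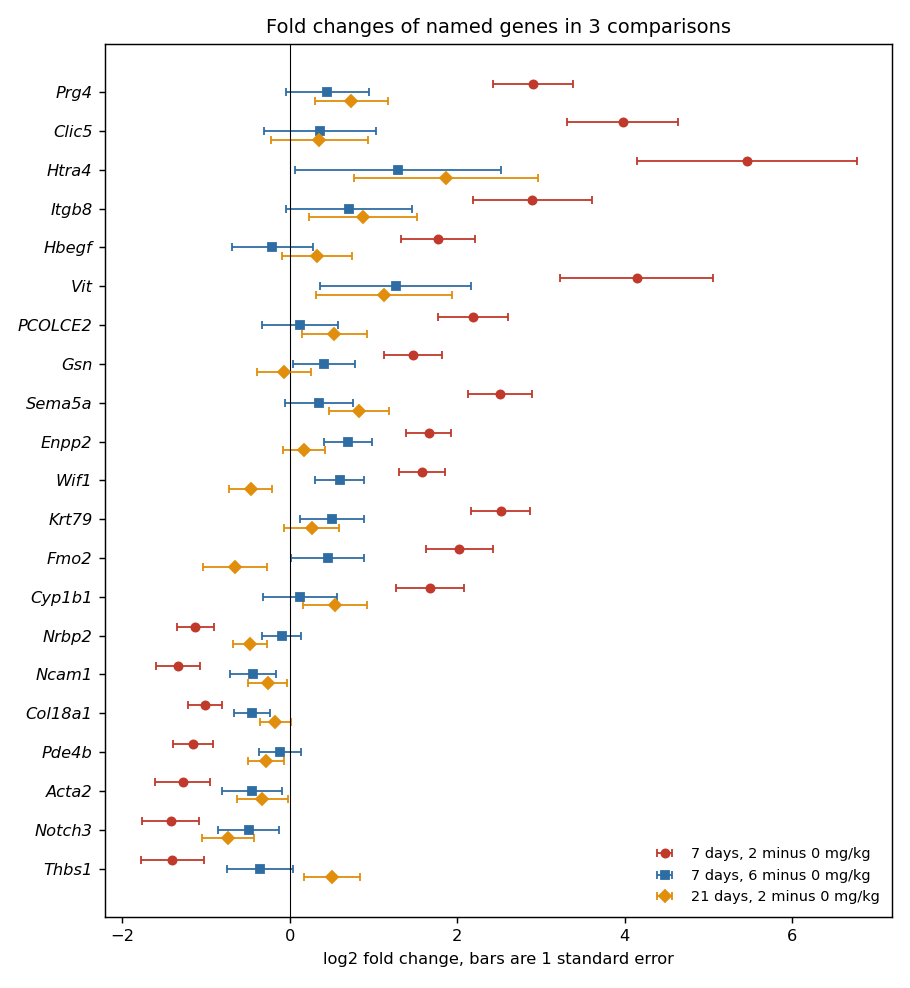
Points are log2 fold changes of named genes with bars of 1 standard error, for 2 against 0 mg/kg at 7 days (circles), 6 against 0 mg/kg at 7 days (squares) and 2 against 0 mg/kg at 21 days (diamonds). The comparisons at 7 days share the 0 mg/kg tendons; Prg4 is at 2.90, 0.45 and 0.73 and Acta2 at -1.28, -0.45 and -0.33 in the 3 comparisons.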

How the data were processed

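RNA of 30 rat plantaris tendons was measured by RNA sequencing, 1 library a tendon, with 50-base single-end reads. The authors trimmed reads with fastp, aligned them with STAR to rn6, counted reads in exons of Ensembl release 95 and deposited raw counts per gene. The authors' comparison columns in the deposited gene table (log2 fold changes, p-values, false discovery rates and average log2 CPM) were not used, and the table served for gene names, widths and identifiers. There were 0 columns of unmapped samples.

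Counts were TMM-scaled and tested with edgeR 4.0.16 (quasi-likelihood F-test) in R 4.3.3, in 1 fit of all 7 groups, for genes that averaged 3 CPM or more in a group, with Benjamini-Hochberg adjustment over all genes tested. Log2 CPM used a prior count of 2. Members, gene lists and tests were chosen with earlier results of these data known. Named genes off the muscle class were the 12 with the smallest adjusted p and the 8 with the largest fold change in each direction among calls without overlap that averaged 5 CPM or more in the group with the higher level, the first 8 of the muscle class, all prostaglandin genes and up to 4 called members of each list, or up to 2 defining members of a list without calls. Gene groups beyond these were formed after the values were seen. Replicates are described as separate rats in the study's methods, which also state that some samples were removed on read quality. Libraries of a group all differed beyond sampling noise (lowest chi-square per gene 29.9). A count of 3 is worth 0.0601 to 0.242 CPM across tendons, and such floors and intervals cover counting error only, since reads carried no molecular identifiers. On simulated counts for 2 against 0 mg/kg at 7 days (12106 genes), 158 of 200 changed genes were recovered (71% at 2-fold, 87% at 4-fold), and 3.07% of calls were false. The simulation gave each gene 1 spread for all groups, with no outlying tendons and no unequal tissue content. Those rates therefore need not hold for the calls described here. Alternatives used DESeq2 1.42.0, limma 3.58.1, other scalings, filters and sample sets, and omissions of single tendons. Promoter sequences came from RefSeq on GRCr8, another build than that of the counts. Results for 3 genes are not reported here.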

Additional observations from a re-analysis of the deposited data

Results flagged for a closer look

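Among 320 sets of a named gene in a 7D group of 4 or 5 tendons, 11 had 1 tendon standing apart, with a gap to its nearest neighbour over Dixon's limit as a part of the group's log2 range, where chance gives about 1 in 20. At 2 mg/kg, replicate 5 was low for the phosphodiesterase Pde4b (8.158 CPM, others 10.87 to 11.24), for Prr7 (4.561 CPM, others 6.852 to 7.402) and for the macrophage protein Cd68 (61.86 CPM, others 220.9 to 258.8). It was high for the glucocorticoid-induced Tsc22d3 (556.2 CPM, others 219.4 to 232.9). Replicate 3 was high for the keratins Krt5 (65.33 CPM) and Krt14 (47.64 CPM), for Ptgs2 (15.81 CPM, others 8.658 to 9.179) and for the myogenic factor Myog (0.02804 CPM, 1 count, others at 0), and low for the growth factor Igf1 (166.6 CPM, others 205 to 206.7). Replicate 4 was high for the kallikrein Klk1 (0.2185 CPM, others 0.05608 to 0.07368). At 0 mg/kg, replicate 5 was low for Notch3 (68.74 CPM, others 126.3 to 146.9). Of the 10 such values at 2 mg/kg, 4 were from replicate 5, the shallowest tendon of its group, and 5 from replicate 3.

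The effect of 2 mg/kg differed between 7 and 21 days in 16 named genes by the interaction term in edgeR (adjusted p under 0.05). As the log2 fold change at 7 days minus that at 21 days, it was larger for Krt79 (2.255), the Wnt inhibitor Wif1 (2.043) and the monooxygenase Fmo2 (2.678). Smaller values belonged to muscle, with -8.83 for Igfn1, -7.767 for Myh4, -7.82 for the junctional protein Trdn, -6.96 for Nrap and -5.936 for Ankrd23. Further muscle genes were the creatine kinase Ckm (-8.055), the myosin light chain Myl1 (-7.116), the skeletal actin Acta1 (-7.705), the unnamed AABR07052585.2 (-7.901), sarcolipin Sln (-5.61), the calcium release channel Ryr1 (-5.759), the respiratory subunit Cox6a2 (-6.883) and myoglobin Mb (-6.395). The muscle share of counts was 0.115 to 9.93% at 21D 0 mg/kg and 1.61 to 4.17% at 21D 2 mg/kg.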

How the results depend on the processing

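Against 114 higher and 182 lower genes (66 of them off the muscle class), scaling by library size gave 75 higher. The 27 repaired tendons alone gave 237 higher and 149 lower off the class, 5 genes between 2 and 6 mg/kg and 6 differing between days. DESeq2 gave 284 higher and 426 lower (284 and 228 off the class), 69 between doses and 226 between days, and limma-trend 44 between days. The muscle share as a covariate gave 574 higher and 344 lower (228 and 292 off the class) and 58 list calls against 18. A muscle class of the lists alone left 111 lower genes off it. Leaving out the 2 shallowest treated tendons kept only 2 of that group, and 4 genes were higher and 0 lower, off the class too. Leaving out 1 tendon gave 41 to 183 higher and 84 to 281 lower (17 to 168 off the class), 0 to 3 between doses, 0 to 73 between days, and for the muscle-list share of counts, day 7 a log2 difference of -4.352 to -3.699. The counts of higher, lower and lower off-class genes were 183, 281 and 168 without 7D 0 mg/kg replicate 1; 66, 119 and 31 without replicate 2; 55, 142 and 30 without replicate 3; and 55, 113 and 21 without replicate 4. They were 90, 94 and 24 without 7D 2 mg/kg replicate 2, and 41, 84 and 17 without replicate 5. The cause was not tested. Between days, 0 genes remained called without 7D 0 mg/kg replicate 2 or 4, 7D 2 mg/kg replicate 4 or 5, 21D 0 mg/kg replicate 4, or 21D 2 mg/kg replicate 1 or 5. No named gene changed direction past the threshold, and of 122 named calls 104 stayed past it with thinned counts, 116 by DESeq2, 78 with the covariate, 73 in a fit of the 9 tendons alone and 56 without 7D 2 mg/kg replicate 5, and 3 of 120 without the 2 shallowest. The 9 tendons alone kept 51 of the 114 and 24 of the 66. Same-numbered tendons had deviations correlated at -0.177 to 0.042, so the numbers were not taken as pairs; with the replicate block 98 genes were higher and 235 lower (98 and 109 off the class). The treated group's shallower tendons limit what could be detected among low genes.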

Other observations

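No gene of the glucocorticoid response list was past the threshold by edgeR. Their summed level was 412 to 754 CPM at 0 mg/kg and 656 to 1314 CPM at 2 mg/kg, or 316.5 to 550 CPM and 429 to 758 CPM without Tsc22d3, which was at 556 CPM in treated replicate 5 and 219 to 233 CPM in the other treated tendons. The list had 9 of 11 log2 fold changes positive and a median of 0.43. The leukotriene list summed to 175 to 275 CPM and 269 to 385 CPM, with 6 of 8 positive and 0 called. Of 52 ribosomal protein genes 48 had a positive log2 fold change (median 0.20), and of 27 cell cycle genes 25 had a negative one (median -0.19), none of them past the threshold by edgeR. Across all genes the median was 0.001. The erythroid list, led by globins of blood in the dissected tissue, summed to 918 to 14790 CPM at 0 mg/kg and 5565 to 18790 CPM at 2 mg/kg.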
